A study of Mus musculus with 4 samples.

Results

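The imprinted genes described here were 47 symbols of known mouse imprinted genes, taken as the rows with those symbols among the 24421 genes of the count files, and all 47 were found. They fall into 20 clusters, 10 of which hold more than 1 listed gene and together 37 of the genes. By textbook knowledge 13 are expressed from the maternal copy, 24 from the paternal copy, and 10 have an imprint that depends on the tissue or on the transcript. Of the 47, 41 are protein-coding and 6 are noncoding RNAs. The counts do not tell the parental copies apart, so parental origin is background throughout and every value is the sum over both copies.

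Short-read RNA-seq was done on R1 cells, a mouse embryonic stem cell (ESC) line, in 2 groups of 2 libraries, and the comparison asked which transcripts differ between the undifferentiated cells and their retinoic acid (RA) treated descendants. Undiff libraries came from cells kept in stem cell medium without RA, described in the study's methods as maintained ESCs with leukaemia inhibitory factor and in the sample labels as embryoid bodies. Day4 libraries came from embryoid bodies, floating aggregates formed without that factor. By the study's methods these were grown for 4 days and then had a further 4 days with RA. The RA dose was 2 µM in the series design and 2 mM in the sample protocol. The replicates were grown and treated separately, and all 4 libraries came from the same cell line, so the values describe 1 genotype. The Day4 cells differed from Undiff by days in culture and RA, and, by the study's methods, also by aggregation and loss of the factor, and the parts of these cannot be told apart.

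Imprinting is the expression of a gene from the copy inherited from 1 parent. In most cases it is set by DNA methylation laid down in the egg or sperm at an imprinting control region. Imprinted genes lie in clusters in which maternally and paternally expressed genes are interleaved, often with a long noncoding RNA, and one control region governs several of them. Many act on fetal and placental growth: as a group, paternally expressed genes such as Igf2 tend to promote growth and maternally expressed ones such as Cdkn1c tend to restrain it. Several are also expressed in mesoderm, placenta and brain, and imprints can be unstable in cultured ESCs.

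The libraries held 36674893 and 32099074 fragments on genes in Undiff and 34956489 and 47730944 in Day4 (replicates 1 and 2 of each), so that 3 counts, the floor below which no fold is given, stood for 0.0629 to 0.0935 CPM, the count of a gene scaled by the total on genes. The check of state was clear: all 8 pluripotency markers, Pou5f1 and Nanog among them, fell, and their summed level went from 3778 and 3840 CPM in Undiff to 16.9 and 12.9 CPM in Day4. In the same libraries 8 of 10 mesenchyme or fibroblast markers rose and 1 fell, and their sum went from 88.3 and 78.5 to 2017 and 1847 CPM. Of 10 neural markers 3 rose and 5 fell (345 and 349 against 176 and 188 CPM), of 10 visceral endoderm markers 7 rose and 2 fell (34.5 and 38.8 against 21.4 and 24 CPM), and of 10 trophoblast markers 1 rose and 5 fell (43.1 and 43.8 against 13 and 12.7 CPM), with Prl3d1 at 0 in all libraries. A single gene can make up most of a sum. Cubn held 27.7 and 32.6 CPM of the visceral endoderm sum in Undiff. Col3a1 held 1100 and 993 CPM of the mesenchyme sum in Day4. By the criteria given below, 22.2% of all genes tested rose and 20.6% fell. These lists moved with the comparison as a whole, and their part in the results for imprinted genes was not tested. In bulk RNA, more cells of a type and more RNA per cell cannot be told apart.

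Imprinted genes took a larger share of the library in Day4. The 47 genes together held 0.477% and 0.492% of all gene counts in the Undiff libraries and 2.11% and 2.09% in the Day4 libraries. A differentially expressed gene (DEG) was one that passed an adjusted p of 0.05 in edgeR's quasi-likelihood test, changed by 1 or more on the log2 scale and averaged 5 or more normalized counts. By these criteria 19 of the imprinted genes were higher in Day4 and 8 were lower, 27 in all. Over all 19891 genes tested the same criteria called 42.8%, with 22.2% higher and 20.6% lower. A call is thus common in this comparison, and the members' count is read against that share. The criteria could call only the 16472 genes with a mean of at least 5, which held all 8521 DEGs. All 45 members with a fold change passed that mean. Among genes that could be called, the share of DEGs was thus above 42.8%. The adjusted p alone was passed by 39 of the members, against 75.6% of all genes tested. The Day4 libraries lay above both Undiff libraries for 29 members and below both for 15, against 85.4% of all genes without overlap in either direction. Of the other 20 members, 18 were not called, Snrpn stayed at or under 3 counts in each library, and Kcnk9, a potassium channel gene, had 0 counts in all 4 libraries, which allows up to 0.0629 to 0.0935 CPM per library by counting error. The 45 genes with a fold change had a median log2 fold change of 0.66, against -0.03 over all genes tested. Their median absolute log2 fold change was 1.51, against 1.07 over the 16472 genes with a mean of at least 5, and 10 of them changed by 4 or more in either direction, where 11.5% of those genes did.

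**Figure D1:**
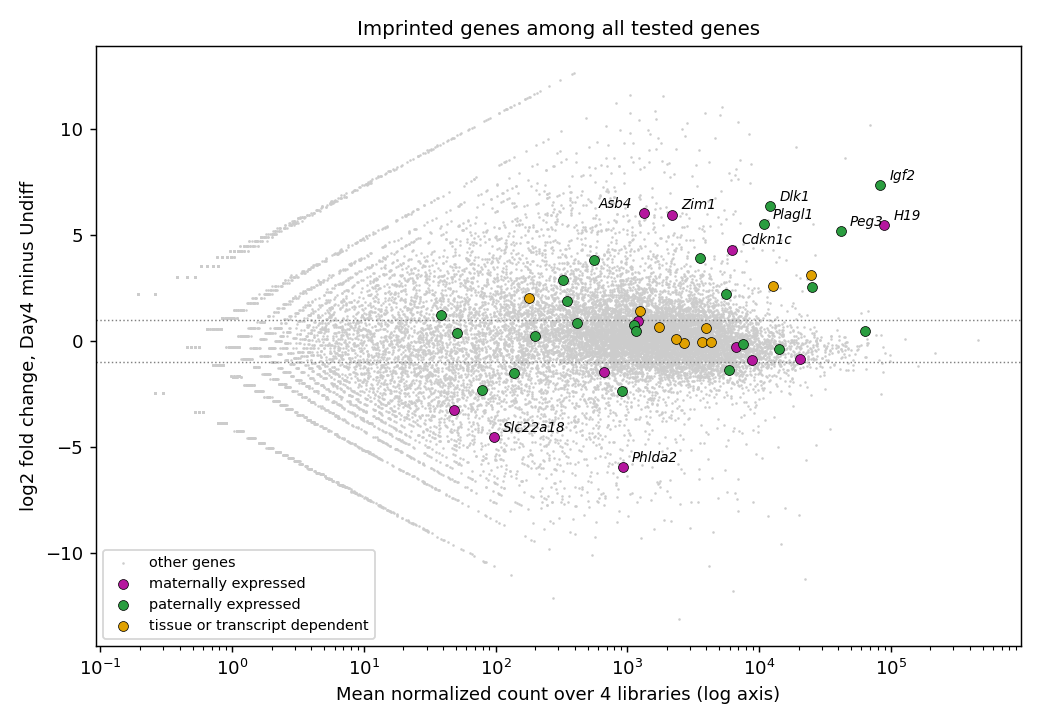
Log2 fold change of Day4 over Undiff (vertical axis) against the mean normalized count over the 4 libraries (horizontal log axis) for all genes tested (grey) and the 45 imprinted genes with a fold change, coloured by textbook parental origin. Dotted lines mark a log2 fold change of 1 in either direction, and the 10 labelled imprinted genes are those past 4, 8 of them higher and Phlda2 and Slc22a18 lower.

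The parental classes did not each move one way. Of the 12 maternally expressed genes with a count, 4 were higher (H19, Zim1, Asb4 and Cdkn1c), 4 were lower (Phlda2, Slc22a18, Ascl2 and Mirg) and 4 were not called, with log2 fold changes from -5.94 to 6.03 and a median of -0.56. Of the 24 paternally expressed genes, 11 were higher, 4 were lower (Sfmbt2, Nap1l5, Magel2 and Zdbf2), 8 were not called and Snrpn had no fold, with a range from -2.33 to 7.35 and a median of 0.83. Of the 10 genes with a tissue or transcript dependent imprint 4 were higher and 6 were not called, with a median of 0.64. Beside these counts, 42.8% of all genes tested were called, 22.2% as higher and 20.6% as lower. The difference between the classes was not tested, since their members share clusters and control regions.

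**Figure D2:**
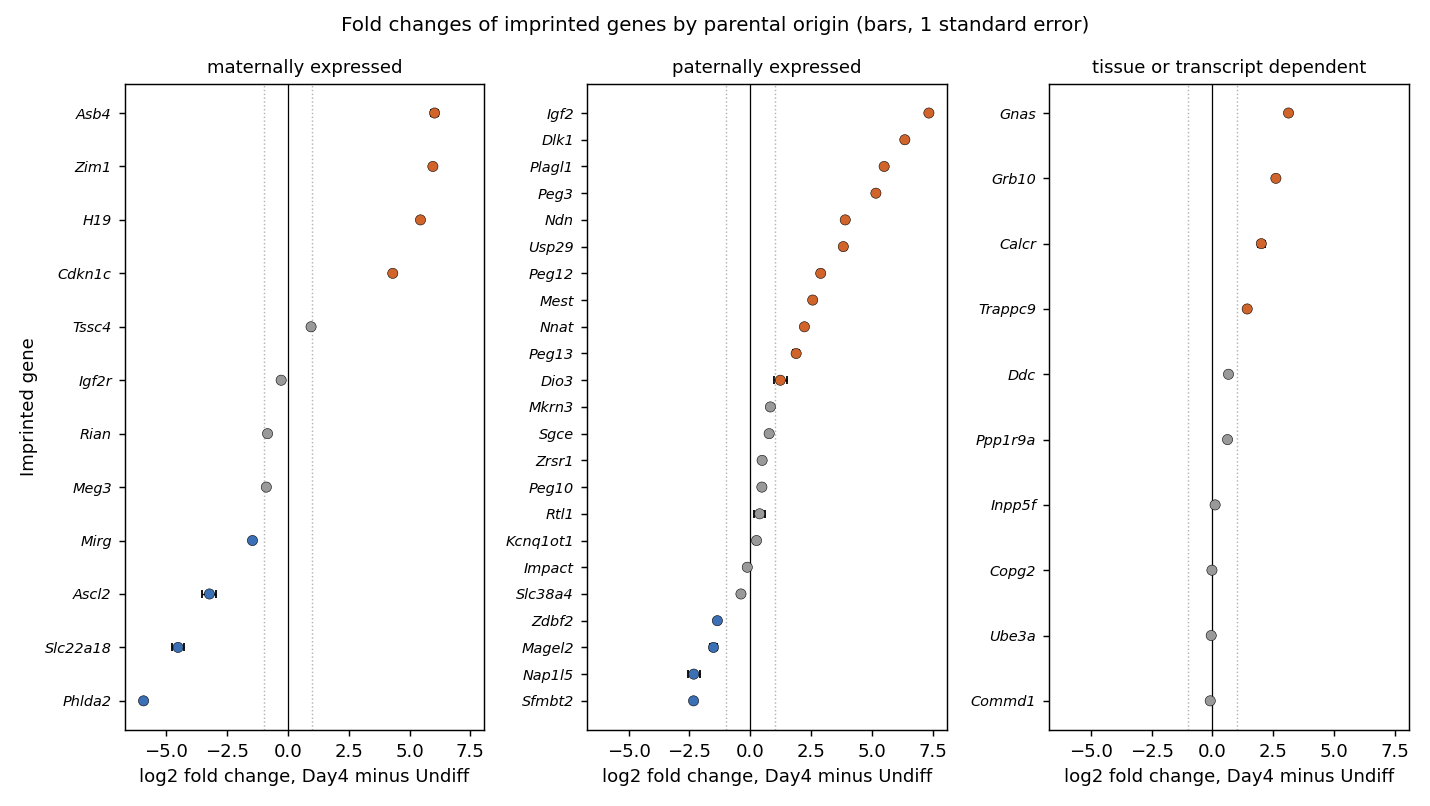
Log2 fold change of each imprinted gene, Day4 minus Undiff, in 3 panels by textbook parental origin, sorted by value, where points are estimates over 2 libraries a group, bars are 1 standard error (SE), orange is a DEG higher in Day4, blue a DEG lower, grey not called, and dotted lines mark 1. The maternally expressed genes spread from Phlda2 at -5.94 to Asb4 at 6.03, and the paternally expressed genes run from Sfmbt2 at -2.33 to Igf2 at 7.35.

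The H19 and Igf2 pair on chromosome 7 rose most in counts. Igf2 (chr7:142650766-142666816, minus strand, mm10) encodes insulin-like growth factor 2, a fetal growth factor expressed from the paternal copy, and H19 (chr7:142575529-142578143, minus strand) is a noncoding RNA expressed from the maternal copy under the same control region and shared enhancers. Igf2 had 1035 and 996 normalized counts in the Undiff libraries and 173497 and 158863 in the Day4 libraries. H19 had 3994 and 4053 in Undiff and 171764 and 179131 in Day4. For both genes the Day4 libraries lay far above the Undiff libraries with no overlap. Igf2 was 164-fold higher in Day4 (log2 fold change 7.35 ± 0.06 SE, edgeR adjusted p = 4.6e-17) and H19 was 43.6-fold higher (5.45 ± 0.04, edgeR adjusted p = 4.6e-17).

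The pair came to make up a large part of the imprinted transcripts. Of the counts on the listed genes, H19 and Igf2 together held 2.76% and 2.67% in Undiff and 44.8% and 44.1% in Day4. In Undiff, Peg10, Rian and Slc38a4 held 51.4% and 52.1%, and in Day4 their share was 12.9% and 13.5%. The smaller share was not a lower level for Peg10, which went from 1340 and 1450 CPM to 1970 and 2090 CPM as other members rose more, while Rian went from 690 and 695 to 414 and 394 CPM. Per kilobase of exon, H19 was at 42.7 ± 0.289 RPKM (the CPM per kilobase of exon, mean ± SD, n = 2) in Undiff and 1950 ± 53 in Day4, and Igf2 at 4.63 ± 0.143 and 794 ± 51.4. H19 thus exceeded Igf2 per kilobase in all 4 libraries, by 8.98 and 9.47 times in Undiff and by 2.3 and 2.62 times in Day4, as Igf2 rose more.

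**Figure D3:**
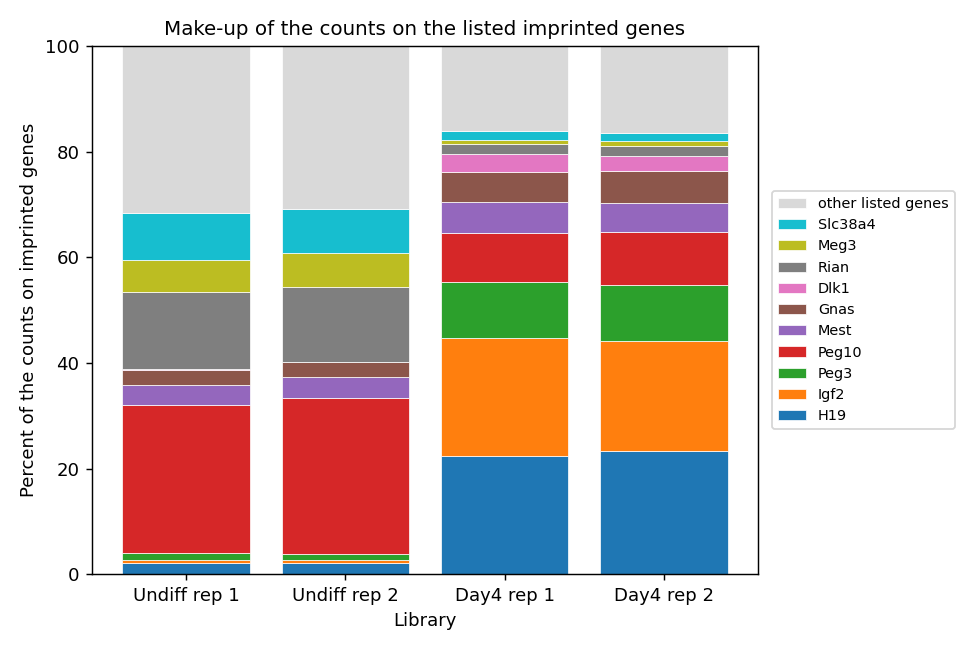
Percent of the counts on the 47 imprinted genes (vertical axis, from 0) taken by 10 named genes and by the others, in each of the 4 libraries. H19 and Igf2 at the foot of the bars take 2.67% to 2.76% in Undiff and 44.1% to 44.8% in Day4, while the share of Peg10, Rian and Slc38a4 goes from 51.4% and 52.1% to 12.9% and 13.5%.

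Both genes carry microRNAs, small RNAs that repress targets matched by their seed, bases 2 to 8. miR-675 lies in an exon of H19 and miR-483 in an intron of Igf2. Their mature sequences from RefSeq (GRCm38.p6) are shown, with the seed in capitals, because both hosts are among the strongest risers.

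mmu-miR-675-5p: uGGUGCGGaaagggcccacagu
mmu-miR-675-3p: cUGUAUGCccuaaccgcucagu
mmu-miR-483-5p: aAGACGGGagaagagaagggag
mmu-miR-483-3p: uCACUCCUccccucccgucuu

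The 4 seeds are distinct from one another. These libraries do not measure mature microRNAs, so the values above are those of the host transcripts. The separate row of the miR-675 gene had 0 counts in all libraries. That of miR-483 had 0 and 0 counts in Undiff and 15 and 9 in Day4 and was called higher, though reads there may come from Igf2. Because miR-675 lies in an H19 exon, reads there could be left out of both rows. Its 0 therefore cannot be read as a lack of the RNA.

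Igf2r, the maternally expressed receptor that binds Igf2 and delivers it to lysosomes, did not follow its ligand. It had 7640 and 7187 normalized counts in Undiff and 6026 and 6187 in Day4. The Day4 libraries were lower without overlap, but the log2 fold change of -0.28 ± 0.04 (edgeR adjusted p = 7.2e-05) was under the minimum for a DEG. Per kilobase, the level of Igf2 was 0.22 and 0.225 of that of Igf2r in the Undiff libraries and 46.8 and 41.8 times that of Igf2r in the Day4 libraries. Airn, the paternally expressed antisense RNA of the Igf2r locus, which is not among the 47, had 5 and 8 counts in Undiff and 238 and 320 in Day4 (log2 fold change 5.07). Slc22a3, a transporter gene of the same locus, had 0 and 2 counts in Undiff and 102 and 140 in Day4.

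Within the Dlk1-Dio3 cluster on chromosome 12 the 3 paternally expressed coding genes and the 3 maternally expressed noncoding RNAs gave different values. Dlk1 (chr12:109452823-109463336, plus strand) encodes a membrane protein of the Notch ligand family expressed in progenitor cells. It had 295 and 290 normalized counts in Undiff and 25233 and 22951 in Day4. The groups were far apart, with an 82.3-fold higher level in Day4 (6.36 ± 0.07, edgeR adjusted p = 3.3e-16). Dio3, which encodes a deiodinase that inactivates thyroid hormone, was much lower in level, with 22.9 and 22.7 normalized counts in Undiff and 53.3 and 54.5 in Day4. It was also higher in Day4 (1.24 ± 0.26, edgeR adjusted p = 7.0e-04). Rtl1, a retrotransposon-derived gene needed in the placenta, had 39.6 and 49.1 in Undiff and 64.8 and 52.2 in Day4. Its groups did not overlap but lay within a narrow range, and it was not called (0.39 ± 0.23, edgeR adjusted p = 0.15).

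The noncoding RNAs of the cluster, Meg3, Rian and Mirg, were all lower in Day4. Meg3 (chr12:109541001-109571726, plus strand) had 11161 and 12069 normalized counts in Undiff and 6363 and 6155 in Day4 (log2 fold change -0.89 ± 0.05, edgeR adjusted p = 7.2e-10). Rian, a host of small nucleolar RNAs, had 26378 and 26706 in Undiff and 15121 and 14448 in Day4 (-0.84 ± 0.04, edgeR adjusted p = 1.7e-10). Both passed the adjusted p but missed the minimum fold change, so neither was a DEG. Mirg, a microRNA host transcript, had 974 and 993 in Undiff and 381 and 338 in Day4 and was a DEG (-1.46 ± 0.08, edgeR adjusted p = 9.1e-10). None of the 3 overlapped between groups. Per kilobase of exon the level of Meg3 was 11.8 and 13 times that of Dlk1 in the Undiff libraries and 0.0789 and 0.0839 of it in the Day4 libraries, so the order of the genes turned over. Rian went from 27.7 and 28.6 times the level of Dlk1 to 0.186 and 0.195 of it.

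The 3 noncoding RNAs and the opposite strand of Rtl1 carry a large microRNA cluster. Of 60 mature microRNAs annotated within the 47 genes, from 32 microRNA genes and 9 hosts, 26 lie in Mirg, 13 in Rtl1, 6 in Rian and 3 in Meg3. The following are shown as examples from each host, since Meg3, Rian and Mirg were lower in Day4 while Dlk1 was higher and Rtl1 was not called. miR-127 and miR-136 lie opposite to Rtl1 exons, miR-770 in an exon of Meg3, miR-370 in an intron of Rian, and the others in Mirg, with seeds in capitals.

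mmu-miR-770-5p: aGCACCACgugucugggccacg
mmu-miR-127-3p: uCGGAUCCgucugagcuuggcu
mmu-miR-136-5p: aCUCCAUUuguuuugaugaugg
mmu-miR-370-3p: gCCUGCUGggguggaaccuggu
mmu-miR-134-5p: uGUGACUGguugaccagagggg
mmu-miR-410-3p: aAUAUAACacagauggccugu
mmu-miR-453: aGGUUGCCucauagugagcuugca
mmu-miR-496a-5p: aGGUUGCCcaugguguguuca

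Among all 60 there were 59 distinct seeds, and the 1 shared by several was that of miR-453 and miR-496a-5p, both in introns of Mirg. The highest count on any microRNA row within these hosts was 19 in Mirg, 9 in Rian and 0 in Rtl1 and Meg3. The microRNAs of Rtl1 and Meg3 all lie at exons of the host, where reads could be left out of both rows. Their 0 therefore cannot be read as a lack of the RNA.

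All 3 listed genes of the Peg3 cluster rose. Peg3 (chr7:6703892-6730431, minus strand) encodes a zinc finger protein expressed from the paternal copy and had 2285 and 2239 normalized counts in Undiff and 80616 and 82282 in Day4. Usp29, a paternally expressed ubiquitin protease gene read from the opposite strand, had 64.6 and 83.8 in Undiff and 1047 and 1043 in Day4. Zim1, a maternally expressed zinc finger gene, had 61.5 and 77.8 in Undiff and 4223 and 4365 in Day4. In each of these genes the replicates of a group were close to one another and the groups were well apart. The log2 fold changes were 5.17 ± 0.04 for Peg3 (edgeR adjusted p = 6.8e-17), 3.83 ± 0.11 for Usp29 (1.5e-12) and 5.96 ± 0.09 for Zim1 (4.1e-15). Of the 6 other genes with a count within 200 kb of the cluster, 2 were at the floor and 1 was a DEG, where 42.8% of all genes tested were. The DEG was Aurkc, a kinase gene, which was lower (181 and 170 counts in Undiff, 12 and 13 in Day4).

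In the Peg10-Sgce cluster on chromosome 6, all 5 listed genes were higher in Day4 but by very different amounts. Peg10 (chr6:4747306-4760517, plus strand), a retrotransposon-derived gene needed in the placenta, was the most abundant imprinted gene per kilobase in Undiff, at 209 ± 12 RPKM (SD, n = 2), and was at 305 ± 12.6 in Day4. It had 51093 and 55699 normalized counts in Undiff and 72059 and 76687 in Day4. The groups did not overlap, but the rise was under the minimum (0.48 ± 0.04, edgeR adjusted p = 3.6e-07). Sgce, the sarcoglycan epsilon gene read outward from the same promoter region, had 905 and 744 in Undiff and 1363 and 1479 in Day4 (0.78 ± 0.08, edgeR adjusted p = 1.2e-06) and was not called either.

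Asb4 and Calcr of the same cluster changed more. Asb4, a maternally expressed gene for an adaptor of a ubiquitin ligase, had 39.6 and 40.7 normalized counts in Undiff and 2365 and 2889 in Day4, with no overlap. It was 65.6-fold higher in Day4 (6.03 ± 0.15, edgeR adjusted p = 3.3e-13). Calcr, the calcitonin receptor gene, had 69.8 and 74.2 in Undiff and 265 and 309 in Day4 (2.01 ± 0.15, edgeR adjusted p = 2.5e-08). Ppp1r9a, which encodes neurabin, a scaffold for protein phosphatase and actin, had 3170 and 3135 in Undiff and 4723 and 4947 in Day4 and was not called (0.62 ± 0.05, edgeR adjusted p = 3.4e-08). Of the 10 other genes with a count within 200 kb, 4 were higher and 2 lower, where 22.2% and 20.6% of all genes tested were. They included Gng11, a G protein gamma subunit gene (26 and 16 counts in Undiff, 560 and 758 in Day4), and Col1a2, a collagen gene of the mesenchyme list (564 and 414 against 10900 and 14663). Pdk4, a gene for a kinase of pyruvate dehydrogenase, was lower (500 and 431 against 52 and 93).

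Mest (chr6:30723547-30748465, plus strand), a paternally expressed gene for a hydrolase-like protein of mesoderm, had 6924 and 7676 normalized counts in Undiff and 44658 and 42146 in Day4. It was 5.95-fold higher in Day4 (2.57 ± 0.05, edgeR adjusted p = 5.5e-14), and the groups did not overlap. Copg2, a coat protein gene read towards Mest from the other strand, had 3876 and 3536 in Undiff and 3633 and 3697 in Day4. Its groups overlapped, the single case among the 45 genes, and its log2 fold change of -0.02 ± 0.05 (edgeR adjusted p = 0.78) reversed in sign when scaled by library totals or without Undiff replicate 1 (0.05 in both). The annotation used here places 23.1% of the Mest exon bases and 17.8% of those of Copg2 in the overlap of the pair, so reads there could be split or left out depending on how strand was counted. miR-335 lies in an intron of Mest. Its separate row had 2 and 10 counts in Undiff and 6 and 7 in Day4, and it was not called. Mature microRNAs were not measured, and the mature forms of miR-335 are shown because its host rose.

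mmu-miR-335-5p: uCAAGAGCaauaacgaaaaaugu
mmu-miR-335-3p: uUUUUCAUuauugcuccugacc

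The Kcnq1 cluster on chromosome 7 gave the widest split between its members. Cdkn1c (chr7:143458339-143461050, minus strand), a maternally expressed inhibitor of cyclin-dependent kinases, had 616 and 585 normalized counts in Undiff and 12785 and 11156 in Day4. Phlda2, a maternally expressed gene for a pleckstrin homology domain protein that restrains placental growth, had 1826 and 1829 in Undiff and 33.4 and 26.9 in Day4. Slc22a18, a transporter gene between them, had 188 and 184 in Undiff and 6.27 and 9.21 in Day4. Cdkn1c was thus high in the Day4 libraries where its neighbours Phlda2 and Slc22a18 were low, with no overlap for any of them. The log2 fold changes were 4.31 ± 0.07 for Cdkn1c (edgeR adjusted p = 1.4e-14), -5.94 ± 0.11 for Phlda2 (2.0e-14) and -4.52 ± 0.24 for Slc22a18 (8.6e-10).

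Ascl2, a transcription factor gene of the trophoblast lineage that stands in the trophoblast marker list too, had 94.8 and 81.4 normalized counts in Undiff and 9.40 and 9.21 in Day4. It fell with the Undiff libraries well above (-3.23 ± 0.29, edgeR adjusted p = 1.9e-07). Tssc4 had 767 and 873 in Undiff and 1653 and 1526 in Day4, at the edge of the fold criterion (0.95 ± 0.07, edgeR adjusted p = 3.7e-08), and became a DEG when scaled by library totals (1.02) or without Undiff replicate 2 (1.05). Kcnq1ot1, the paternally expressed noncoding RNA whose promoter lies in the control region and which is known to silence the maternally expressed genes in cis, had 181 and 183 in Undiff and 203 and 230 in Day4. Its groups did not overlap but it was not called (0.26 ± 0.12, edgeR adjusted p = 0.065). Per kilobase the level of Cdkn1c was 0.186 and 0.176 of that of Phlda2 in Undiff and 207 and 225 times that of Phlda2 in Day4.

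**Figure D4:**
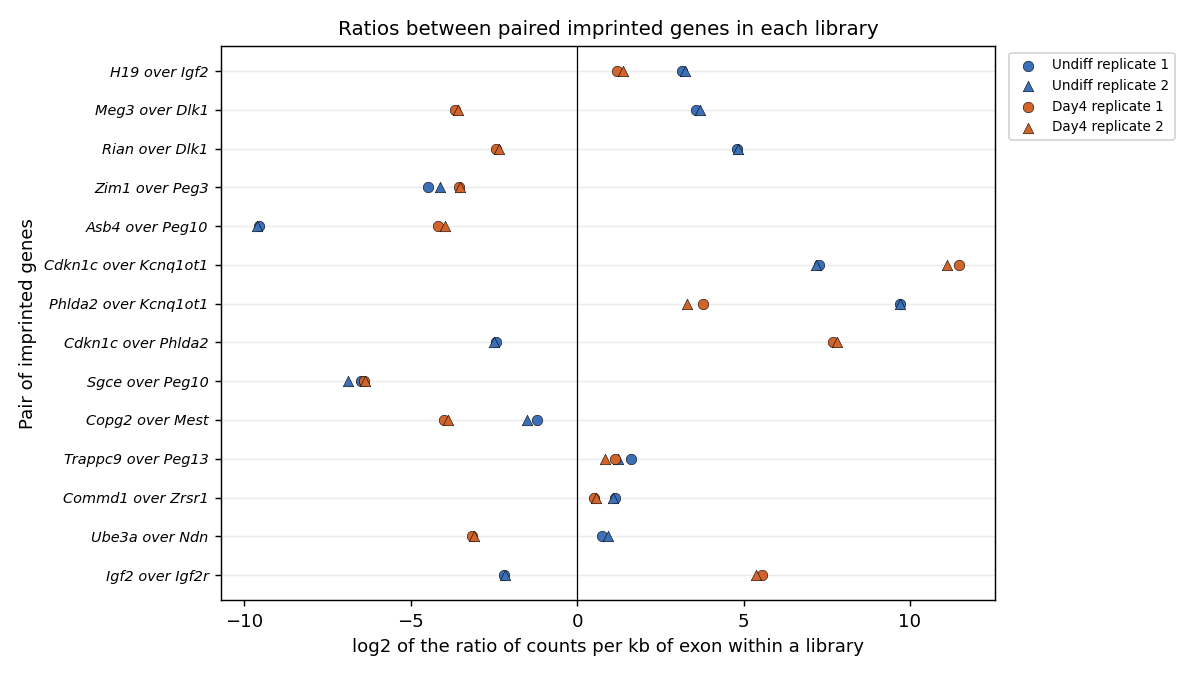
Log2 of the ratio of counts per kilobase of exon between 14 pairs of imprinted genes (vertical axis), 1 point per library, circles for replicate 1 and triangles for replicate 2, blue for Undiff and orange for Day4. The ratios of Meg3, Rian and Ube3a over their partners cross 0 from right to left, those of Cdkn1c over Phlda2 and Igf2 over Igf2r cross from left to right, and Sgce over Peg10 stays near its place.

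In all 14 pairs of members compared in this way the Undiff and Day4 libraries did not overlap. Taken singly, 85.4% of all genes tested did not overlap either. The pairs were chosen with earlier results known, and the share for pairs of other genes was not computed, so this count is no result about imprinted pairs. With 2 libraries a group an exact two-sided permutation test cannot give a p under 0.333, so these ratios are descriptions. The largest difference on the log2 scale was 10.22 for Cdkn1c over Phlda2, followed by Igf2 over Igf2r at 7.63, Meg3 over Dlk1 at -7.25 and Rian over Dlk1 at -7.21. The smallest were Sgce over Peg10 at 0.31, about the spread within Undiff of 0.29 (SD, n = 2), and Trappc9 over Peg13 at -0.43.

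In the Snrpn-Ube3a cluster on chromosome 7, Ndn and Peg12 rose and Magel2 fell. Ndn (chr7:62346569-62350262, plus strand), the paternally expressed gene for necdin, a growth-restraining protein of the MAGE family, had 461 and 419 normalized counts in Undiff and 6859 and 6439 in Day4. Peg12 had 74.0 and 81.4 in Undiff and 566 and 587 in Day4. Magel2, another MAGE family gene close to Ndn, had 207 and 207 in Undiff and 58.5 and 82.9 in Day4. The groups were apart in all of these, in opposite directions for Ndn and Magel2. The log2 fold changes were 3.91 ± 0.06 for Ndn (edgeR adjusted p = 1.0e-14), 2.90 ± 0.11 for Peg12 (3.7e-11) and -1.51 ± 0.16 for Magel2 (1.3e-06).

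The other listed genes of that cluster were not called or could not be read. Mkrn3, a gene for a zinc finger ubiquitin ligase, had 301 and 298 normalized counts in Undiff and 525 and 539 in Day4 and was not called (0.83 ± 0.08, edgeR adjusted p = 8.3e-07). Ube3a, a ubiquitin ligase gene expressed from the maternal copy in neurons and from both copies in most other tissues, had 4325 and 4470 in Undiff and 4272 and 4241 in Day4. Its log2 fold change was -0.05 ± 0.04 (edgeR adjusted p = 0.35) and reversed in sign with library totals. Snrpn, which encodes a splicing protein, had 0 and 2 counts in Undiff and 0 and 0 in Day4, and Snurf, which is read from the same transcript, had 0 in all libraries. In the annotation used here 10% of the Snrpn exon bases lie in Snurf, and the overlap in the annotation used for counting was not checked, so these zeros cannot be read as a lack of the transcript. Snhg14, which is not among the 47, a long noncoding RNA that runs from Snrpn through small nucleolar RNAs to the antisense side of Ube3a, had 4303 and 4459 counts in Undiff and 450 and 611 in Day4 (-3.38 ± 0.08).

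Several imprinted genes that stand alone or in small clusters rose strongly. Plagl1 (chr10:13060504-13131694, plus strand), a paternally expressed zinc finger transcription factor with known targets among other imprinted genes, had 459 and 477 normalized counts in Undiff and 20759 and 21772 in Day4. It was 45.5-fold higher in Day4 with no overlap (5.51 ± 0.06, edgeR adjusted p = 2.4e-16). Gnas (chr2:174284320-174346744, plus strand), a complex locus whose products include the stimulatory G protein alpha subunit, had 5246 and 5039 in Undiff and 44472 and 45571 in Day4. It was 8.75-fold higher (3.13 ± 0.04, edgeR adjusted p = 1.6e-15), but the gene-level count sums transcripts whose imprints differ in parental direction. Nespas, its antisense RNA and not among the 47, had 117 and 98 counts in Undiff and 14 and 22 in Day4.

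Grb10, an adaptor gene that restrains insulin and growth factor signalling, had 3718 and 3542 normalized counts in Undiff and 22079 and 22246 in Day4 (2.61 ± 0.04, edgeR adjusted p = 1.1e-14). Its neighbour Ddc, which encodes the decarboxylase that forms dopamine, had 1209 and 1479 in Undiff and 2139 and 2100 in Day4 and was not called (0.66 ± 0.08, edgeR adjusted p = 3.0e-06). Nnat, the paternally expressed neuronatin gene within an intron of Blcap, had 2029 and 1905 in Undiff and 8903 and 9591 in Day4 (2.23 ± 0.05, edgeR adjusted p = 2.8e-13). The groups did not overlap for any of these genes.

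Peg13, a paternally expressed noncoding RNA in an intron of Trappc9, and Trappc9 itself, which encodes a subunit of a vesicle tethering complex, rose together. Peg13 had 138 and 159 normalized counts in Undiff and 507 and 584 in Day4 (1.89 ± 0.12, edgeR adjusted p = 3.9e-09). Trappc9 had 714 and 625 in Undiff and 1863 and 1769 in Day4 (1.43 ± 0.07, edgeR adjusted p = 3.6e-10). Both lie on the minus strand and Peg13 shares no exon base with Trappc9 in the annotation used here, so unspliced Trappc9 RNA could be counted to Peg13.

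Besides the members already named, Sfmbt2, Nap1l5 and Zdbf2 fell. Sfmbt2 (chr2:10370510-10595253, plus strand), a paternally expressed gene for a Polycomb-related protein needed in extraembryonic tissue, had 1429 and 1646 normalized counts in Undiff and 308 and 302 in Day4 (-2.33 ± 0.08, edgeR adjusted p = 1.6e-11). Nap1l5, a retrogene in an intron of Herc3, had 137 and 129 in Undiff and 15.7 and 34.5 in Day4 (-2.32 ± 0.25, edgeR adjusted p = 1.3e-06). Zdbf2, a paternally expressed zinc finger gene, had 7815 and 9269 in Undiff and 3302 and 3407 in Day4 (-1.35 ± 0.07, edgeR adjusted p = 4.2e-10). The groups were apart in each, and the Day4 replicates of Nap1l5 differed most from one another.

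The remaining genes were not called and stayed within a narrow range. Slc38a4, an amino acid transporter gene that stood at 98.5 ± 1.22 RPKM in Undiff and 79.3 ± 2.56 in Day4 (SD, n = 2), had a log2 fold change of -0.38 ± 0.04 (edgeR adjusted p = 1.2e-06), and its Day4 libraries lay below the Undiff libraries. Zrsr1, a splicing factor retrogene within Commd1 on the opposite strand, had 947 and 996 normalized counts in Undiff and 1373 and 1358 in Day4 (0.49 ± 0.06, edgeR adjusted p = 4.9e-06). Commd1 itself, a copper homeostasis gene, was at -0.09 ± 0.05 (edgeR adjusted p = 0.12). The annotation used here places 9.17% of the Zrsr1 exon bases and 6.94% of those of Commd1 in their overlap, so reads there could be split or left out. Impact, a regulator of the integrated stress response, was at -0.12 ± 0.04 (edgeR adjusted p = 0.022) and Inpp5f, a phosphoinositide phosphatase gene, at 0.11 ± 0.05 (edgeR adjusted p = 0.052).

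**Figure D5:**
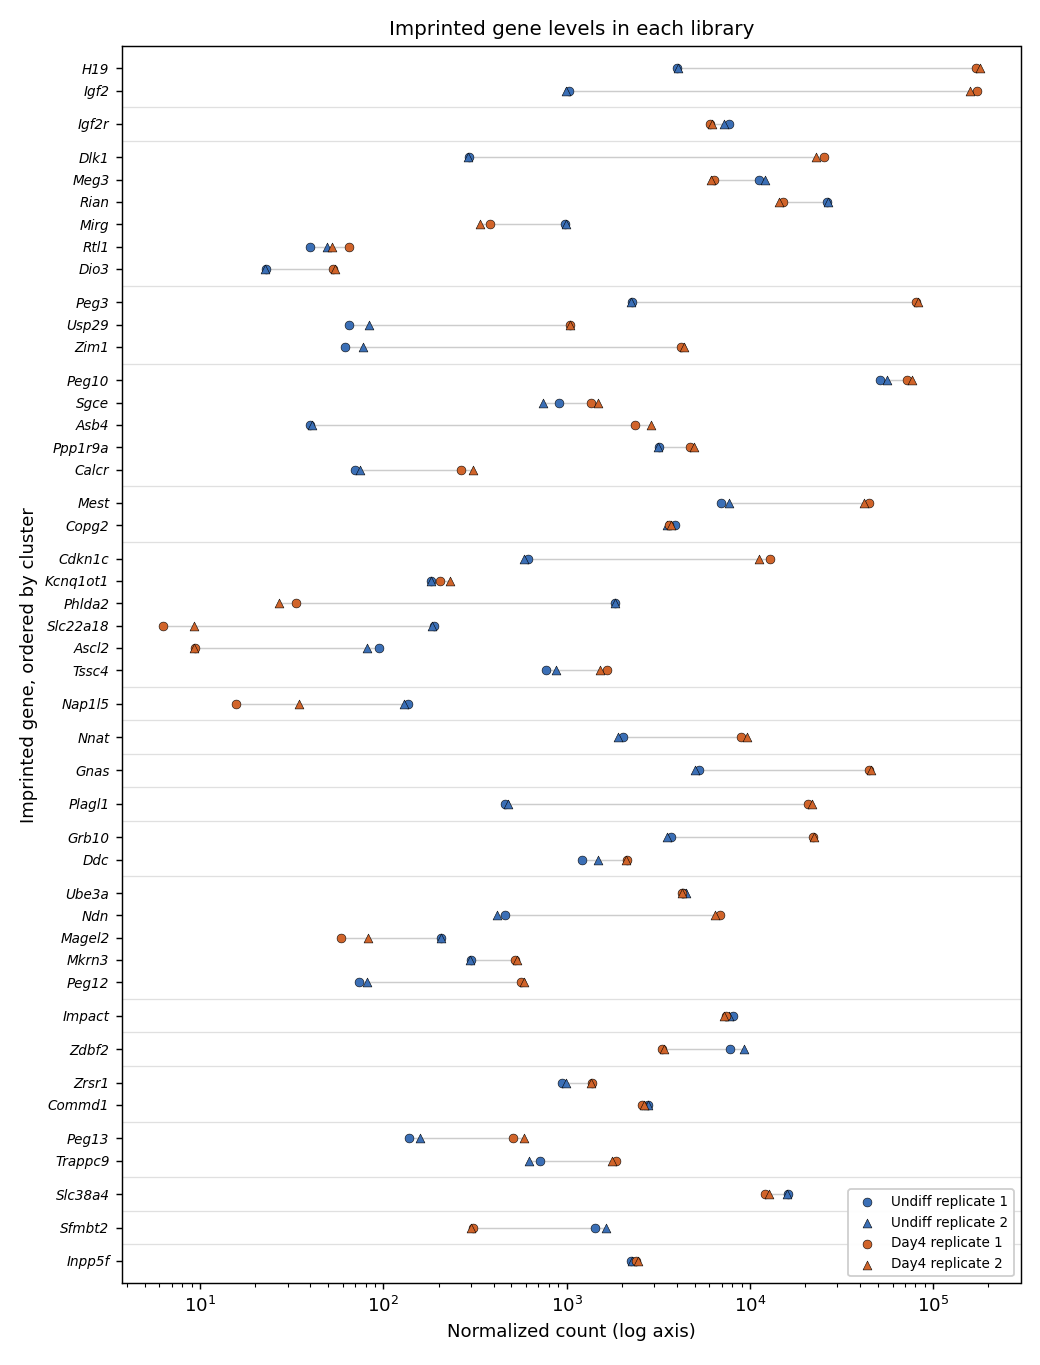
Normalized counts (horizontal log axis) of the 45 imprinted genes with a fold change in each of the 4 libraries, ordered by cluster with grey rules between clusters, circles for replicate 1 and triangles for replicate 2, blue for Undiff and orange for Day4. Igf2 goes from 996 and 1035 in Undiff to 158863 and 173497 in Day4, Phlda2 from 1826 and 1829 to 26.9 and 33.4, and the groups overlap for Copg2.

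The order of levels per kilobase changed between the groups. In Undiff 1 imprinted gene, Peg10, was at 100 RPKM or more, and in Day4 there were 9: H19, Igf2, Peg10, Mest, Peg3, Cdkn1c, Nnat, Dlk1 and Gnas. In Day4 H19 (1950 ± 53) and Igf2 (794 ± 51.4) led, and Peg10 (305 ± 12.6) and Mest (301 ± 13.1) that followed did not differ beyond their spread (SD, n = 2). Peg3 (167 ± 2) and Cdkn1c (161 ± 15.9) did not differ beyond it either, nor did Dlk1 (116 ± 8.09) and Gnas (110 ± 1.62). At the lower end 11 genes were under 1 RPKM in Undiff and 11 in Day4. Of these, 6 left the range in Day4 (Zim1, Asb4, Usp29, Peg12, Peg13 and Calcr) and 6 entered it (Phlda2, Slc22a18, Ascl2, Nap1l5, Magel2 and Sfmbt2). The widest moves were those of Zim1, from 0.225 to 14.5 RPKM, of Asb4, from 0.266 to 18.3, and of Phlda2, from 42.6 to 0.735. These levels use the exon lengths of 1 annotation, and they depend on the length used. With the length of the longest transcript in place of all exons, 2 genes were at 100 RPKM or more in Undiff, Slc38a4 (107) in addition to Peg10, and 11 in Day4, with Grb10 (120) and Plagl1 (111) in addition. On that scale Mest (445) stood above Peg10 (305) in Day4 and Gnas (312) above Dlk1 (142), so the order of these neighbours rests on the length.

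By cluster, of the 10 with more than 1 listed gene, 3 held DEGs in both directions (Dlk1-Dio3, Kcnq1 and Snrpn-Ube3a), 6 held DEGs in the higher direction alone, and 1, Zrsr1-Commd1, held no DEG. In 2 clusters, H19-Igf2 and Peg3, every listed gene was a DEG higher in Day4. Of the 290 other genes of the files that lie within 200 kb of a cluster, 154 had a count, 30 were DEGs higher and 24 lower, where 22.2% and 20.6% of all genes tested were, and the median log2 fold change was -0.13. Near H19-Igf2, 6 of 9 genes with a count were DEGs higher in Day4. These included Lsp1, a leukocyte actin-binding protein gene (50 and 60 counts in Undiff, 3449 and 4562 in Day4), and Igf2os, an antisense RNA of Igf2 (17 and 13 against 1458 and 2031). Igf2os overlaps Igf2, and the miR-483 gene, another of the 6, lies in an intron of Igf2. Reads of both may therefore not be separable from those of Igf2.

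Imprints are set, kept or read by several proteins, some of which bind methylated control regions and some of which add or copy methylation. Of 12 such genes, 5 were lower in Day4 and 7 were not called, where the criteria called 42.8% of all genes tested and 20.6% as lower. Dnmt3l, a cofactor of the de novo methyltransferases, had 12059 and 10895 counts in Undiff and 4 and 4 in Day4 (log2 fold change -11.77). Dppa3, which protects the maternal methylation in the egg and early embryo, had 1652 and 1508 counts in Undiff and 45 and 70 in Day4 (-5.11). Uhrf1, which guides the maintenance methyltransferase, was at -1.34 and Trim28, the corepressor at the control regions, at -1.02. The fifth was Zfp57, the zinc finger protein that recruits Trim28, with 9249 and 9634 counts in Undiff and 1737 and 2266 in Day4 (-2.57). It is named because it completes the 5, after its values were seen. Of the genes not called, Dnmt1, the maintenance methyltransferase, was at -0.67. In 4 genes the Day4 libraries lay above the Undiff libraries, with Arid4b at 0.95, Dnmt3a, a de novo methyltransferase, at 0.71, Zfp445, a further zinc finger protein of the control regions, at 0.49 and Ctcf at 0.10. DNA methylation was not measured here.

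A further list held 27 imprinted genes outside the 47. Of these 25 had a count, 7 were higher, 7 lower and 9 not called, with 2 at the floor and a median log2 fold change of 0.56, where 42.8% of all genes tested were called. Their summed level was 1405 and 1468 CPM in Undiff and 962 and 944 CPM in Day4, against 4767 and 4918 and then 21102 and 20918 CPM for the 47. Beside Slc22a3 and Airn, the ends of this list were Atp10a, a phospholipid transporter gene (2109 and 1749 counts in Undiff, 151 and 228 in Day4), and Jade1, a chromatin reader gene (14035 and 13406 in Undiff, 1630 and 2090 in Day4).

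The letters TGCCGC, to which ZFP57 binds when the site is methylated, were looked for on both strands in the 250 bases before each RefSeq start (GRCm38.p6). A window was found for 38 of the 47 genes, 60 windows in all. The letters were present in 9 windows of 8 genes (Calcr, Copg2, Meg3, Mest, Nap1l5, Plagl1, Zdbf2 and Zim1), against 8.68% of the 32851 windows searched. Windows of a gene can overlap and are not independent: those of Mest that start at 30737800 and 30737803 hold the same sites. The letters GGGGCCCC, bound by PLAGL1, were present in 2 windows, of Peg3 and Ppp1r9a, against 0.889% of all. The windows of imprinted genes held a median of 10 CpG dinucleotides, against 6 over all windows. The windows of Mest (chr6:30737800-30738049, plus strand) and Meg3 (chr12:109540746-109540995, plus strand) are shown because Mest rose and Meg3 was lower, and both start at regions known to be methylated on 1 parental copy, with TGCCGC or its reverse complement in capitals.

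Mest: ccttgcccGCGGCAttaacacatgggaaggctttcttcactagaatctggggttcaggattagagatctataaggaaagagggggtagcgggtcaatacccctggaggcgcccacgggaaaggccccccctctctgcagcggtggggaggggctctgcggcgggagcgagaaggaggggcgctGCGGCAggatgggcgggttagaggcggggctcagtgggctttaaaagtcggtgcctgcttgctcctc
Meg3: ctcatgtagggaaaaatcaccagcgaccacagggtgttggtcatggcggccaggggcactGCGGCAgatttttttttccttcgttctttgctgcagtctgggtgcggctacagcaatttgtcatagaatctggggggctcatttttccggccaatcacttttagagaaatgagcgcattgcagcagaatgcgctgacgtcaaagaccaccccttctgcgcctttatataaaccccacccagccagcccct

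A match of letters is a description of these windows and not a bound site, and the 8 genes with TGCCGC included members that were higher, lower and not called.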

How the data were processed

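Total RNA of 2 Undiff and 2 Day4 samples was sequenced as paired-end reads on an Illumina instrument. The study's methods name the TruSeq RNA v2 kit, which does not mark strand, while the series and sample texts also name a strand-specific total RNA preparation. The authors' processing used cutadapt for trimming, STAR 2.4.2a for alignment to mm10 and HTSeq for counts per gene. Counting took strandedness into account by the study's methods, which name strand-specific counting for direct RNA libraries and no setting for these, so antisense or overlapping genes may not be separable. The deposited files hold raw counts, with 7.5% to 13.2% of fragments on no gene and 1.84% to 1.91% ambiguous, which were left out of totals. Groups were taken from the sample titles.

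Here, the counts were scaled by TMM and tested with edgeR 4.0.16 (R 4.3.3), quasi-likelihood, no block, over the 19891 genes with a count, with Benjamini-Hochberg adjustment. The design called for edgeR's test, and its current quasi-likelihood method was set explicitly (prior degrees of freedom 10.4), because the default of this release gave infinite prior degrees of freedom; that older method is an alternative chosen after seeing the data. SE is the absolute log2 fold change over the square root of F. A normalized count is the count brought to a common effective library size, the geometric mean over libraries. Ratios of pairs added 0.5 counts to each gene on the log2 scale, and ratios per kilobase divide by exon length. Exon lengths, positions and overlaps came from GENCODE vM21 (GRCm38), which is not the annotation used for counting. The test was tested on simulated data. The biological coefficient of variation was 3.66%, and replicates differed beyond counting noise (chi-square per degree of freedom 5.71 in Undiff and 3.07 in Day4), so none was a repeat deposit. Intervals and floors cover counting error only.

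The named genes are the 47 members. From each further list, and among genes within 200 kb of a cluster, the 2 highest and 2 lowest DEGs by fold change with a mean of at least 1 CPM could be named, with Pou5f1 and Nanog as the check of state. Snurf, Nespas, Prl3d1, Dnmt1, Arid4b, Dnmt3a, Zfp445 and Ctcf are named outside this rule, chosen after their values were seen. Members, lists and tests were chosen with earlier results of these data known. Alternatives were DESeq2 1.42.0 with and without the shrinkage of the study's methods, other scalings, filters and thresholds, a replicate block, and leaving out each library.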

Additional observations from a re-analysis of the deposited data

How the results depend on the processing

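The same 19 higher and 8 lower imprinted genes were DEGs under each of the 13 alternatives. Where only the minimum fold change or the minimum mean count was dropped, this outcome was fixed in advance. Tssc4 was added with library totals and without Undiff replicate 2, giving 28 in all, and 39 were called without a minimum fold change. Without each library in turn the count of imprinted DEGs ran from 27 to 28. The sign turned for genes near no change: Copg2 went from -0.02 to 0.05 with library totals and ranged from -0.08 to 0.05 as each library was left out (0.05 without Undiff replicate 1), and Ube3a went from -0.05 to 0.02 with library totals. Library totals shifted the median of all genes by 0.07 and DESeq2 size factors by -0.04 on the log2 scale. Without a minimum fold change the DEGs over all genes were 14309 (7305 higher and 7004 lower), the imprinted genes lower in Day4 became 13 and the maternally expressed genes lower became 7, since that criterion was dropped. Log2 ratios moved with a pseudocount of 5 for Asb4 over Peg10 (5.36) and Cdkn1c over Phlda2 (10.04). Levels per kilobase moved beyond the replicate spread in 59 of 91 values when the longest transcript gave the length. The within-group deviations of samples with the same replicate number had a correlation of -0.005 over 13318 genes, so the numbers do not pair the samples, and with the replicate block 8515 genes and 27 imprinted genes were called. The 2 libraries a group limit the precision of each value.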
